A study of Mus musculus with 9 samples.

Results

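Otx2, Pou3f1, Fgf5, Lef1 and Zic2 are markers of the formative and primed states of pluripotency, chosen by gene symbol. All 5 were present in a table of 33924 genes counted by RNA sequencing in 9 libraries of mouse embryonic stem cells, and all 5 passed the filter on low counts, as did 14772 genes in all. There were 3 libraries of cells with a knockout of UTX, 3 labelled as carrying a knockdown of MLL4 and 3 of UTX wild type cells. All were male, untreated, and grown on gelatin in medium with LIF and fetal bovine serum. UTX (gene Kdm6a) is a histone H3K27 demethylase and MLL4 (gene Kmt2d) a histone H3K4 methyltransferase that acts at enhancers, and the series title joins both with p300 in a network that shapes active enhancers. The titles name JM8A for the wild type cells and A6 for all UTX knockout cells. Those of the labelled MLL4 knockdown give JM8A with a further number. Neither A6 nor that number is explained, as a clone of the same line or otherwise. Line or clone and genotype therefore cannot be told apart in either group. The sources used here state neither age nor passage.

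Naive embryonic stem cells match the inner cell mass before implantation and are held there by LIF, with factors such as Klf4, Esrrb and Nanog. On the way to the post-implantation epiblast, FGF and ERK signalling moves cells through a formative state, in which Otx2 and Pou3f1 (also called Oct6) redirect Oct4 to new enhancers, Fgf5 is switched on and the de novo DNA methyltransferases rise. Lef1 is a nuclear effector of Wnt signalling, and Zic2 is a zinc finger factor that binds enhancers in stem cells. Cultures in serum and LIF are known to be mixed, with a minority of cells that carry such transcripts.

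Depth was close across libraries, at 18570746 to 23874816 counts each. Kdm6a averaged 16.4 CPM in the UTX knockout, 106.8 in the labelled MLL4 knockdown and 78.9 in wild type, and fell in the knockout by 2.27 on the log2 scale (SE 0.198, adjusted p = 0.000155). CPM is a gene's count relative to its library's total, scaled by TMM factors. The transcript of MLL4, listed under its older symbol Mll2, averaged 112.2, 72.1 and 82.9 CPM in the same order. Its log2 fold change in the labelled MLL4 knockdown was -0.20 (SE 0.271, adjusted p = 0.624). It rests on single wild type libraries: without wild type replicate 2 it was -0.51 and called (SE 0.151, adjusted p = 0.0353), and without replicate 3 it was 0.16 (adjusted p = 0.666). The group is therefore called by its label throughout. The Y-linked Uty fell in both groups relative to wild type (-4.07, SE 0.280, and -3.83, SE 0.275). It was not alone: the median of the 4 tested Y genes was -3.93 in the UTX knockout and -4.18 in the labelled MLL4 knockdown. Both groups thus differ from wild type across the Y chromosome, and the part of this in the falls they share was not tested. Replicates 1 and 3 of every group were run in lane 2 and replicate 2 in lane 1. Whether replicates were separate cultures is not stated, and every p-value therefore reflects the spread among these libraries alone, possibly technical.

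RefSeq promoter windows on GRCm38.p6, from 250 bases before to 50 after an annotated start, were at hand for 3 of the 5 genes. Otx2 and Lef1 have 4 windows each and Fgf5 has 1. The windows printed are of a pair of genes that moved together in the libraries (Otx2, Fgf5) and of the gene that did not pass the test (Lef1). The counts do not say which start of Otx2 or Lef1 was in use, and each window shown for them is the first whose capitals are a motif of their own family or of the ZIC family. Capitals mark the letters found by a search of both strands for TAATCC (OTX), CTTTGAT (TCF/LEF), ATGCAAA (octamer), CAGCAGG (ZIC), CACGTG (E-box) and TATAAA.
Otx2, window 3, chr14:48665060-48665359, minus strand: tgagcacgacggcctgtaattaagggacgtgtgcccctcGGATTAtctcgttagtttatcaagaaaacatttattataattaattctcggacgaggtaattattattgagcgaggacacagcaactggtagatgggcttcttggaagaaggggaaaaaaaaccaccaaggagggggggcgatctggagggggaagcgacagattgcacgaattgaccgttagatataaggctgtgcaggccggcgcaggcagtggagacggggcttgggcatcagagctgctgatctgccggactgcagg
Fgf5, chr5:98253934-98254233, plus strand: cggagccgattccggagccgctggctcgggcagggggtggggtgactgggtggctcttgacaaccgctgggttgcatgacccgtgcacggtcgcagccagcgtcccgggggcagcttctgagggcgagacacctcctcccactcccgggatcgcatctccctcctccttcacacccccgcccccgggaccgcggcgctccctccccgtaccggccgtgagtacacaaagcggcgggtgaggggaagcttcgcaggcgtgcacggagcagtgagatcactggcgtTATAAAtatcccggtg
Lef1, window 1, chr3:131110047-131110346, plus strand: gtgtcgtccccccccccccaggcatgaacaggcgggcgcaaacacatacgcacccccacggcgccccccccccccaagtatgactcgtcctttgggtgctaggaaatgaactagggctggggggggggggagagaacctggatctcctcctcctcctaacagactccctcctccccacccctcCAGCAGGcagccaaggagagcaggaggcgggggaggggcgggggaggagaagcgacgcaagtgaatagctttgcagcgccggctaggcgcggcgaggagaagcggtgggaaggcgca
The Otx2 window holds the OTX letters on the opposite strand at position -211, counted from the start. The Fgf5 window holds TATAAA at position 35, inside the transcript, and the Lef1 window holds the ZIC letters at position -67. Such letters are common: TAATCC is in 7.06% of all 32851 windows, TATAAA in 13.6% and CAGCAGG in 10.5%. The GC content of the printed windows was 51.0% for Otx2, 68.3% for Fgf5 and 67.3% for Lef1, beside a median of 52.7% over all windows. A match of letters is a description of the window and not a bound site.

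Relative to wild type, 4 of the 5 genes fell in the UTX knockout (Otx2, Pou3f1, Fgf5, Zic2) and 3 fell in the labelled MLL4 knockdown (Otx2, Pou3f1, Fgf5). None of the 5 rose in either. Otx2 was lower in the labelled MLL4 knockdown than in either other group, Zic2 was lower in the UTX knockout than in either other group, and Lef1 did not pass the test in any comparison. Genes were tested with edgeR's quasi-likelihood test over all genes and called at a Benjamini-Hochberg adjusted p under 0.05. By that rule 15.5% of all tested genes were called in the UTX knockout against wild type (6.55% rose, 8.92% fell) and 26.6% in the labelled MLL4 knockdown against wild type (10.8% rose, 15.8% fell). With a replicate block the first of these, 2285 genes, became 3446, and it shrank to 833 or 1100 with UTX knockout replicate 2 or 3 dropped. The second, 3930 genes, shrank to 2273 or 2411 with labelled MLL4 knockdown replicate 2 or 3 dropped. Between the labelled MLL4 knockdown and the UTX knockout 28.9% were called (13.0% rose, 16.0% fell), and among the 5 genes Zic2 rose and Otx2 fell. Those 4275 genes became 2556 to 2840 with UTX knockout replicate 2 or 3, or any labelled MLL4 knockdown library, dropped. The median log2 fold change of the 5 genes was -1.14 in the knockout and -0.90 in the labelled knockdown, where the medians of all tested genes were -0.01 and -0.02. The 5 genes were chosen with earlier results of these data known, so their contrast with all tested genes is a description only. The comparisons with wild type share their 3 wild type libraries, so these are not independent of each other. In bulk RNA, fewer cells that carry a transcript and less of it per cell cannot be told apart.

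**Figure D1:**
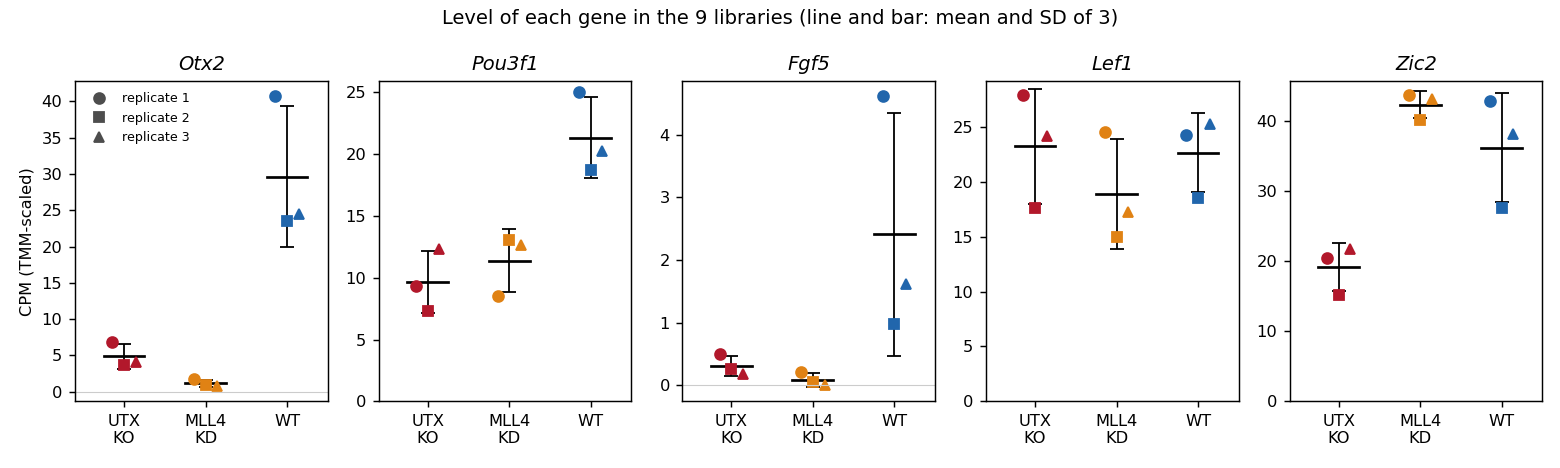
Level of each of the 5 genes in CPM (linear axis, TMM-scaled) in the 3 UTX knockout, 3 labelled MLL4 knockdown and 3 wild type libraries; point shape gives the replicate number, the line is the mean and the bar the SD of 3. Otx2, Pou3f1 and Fgf5 lie below every wild type library in both groups, Zic2 does so in the UTX knockout, and the Lef1 points of the 3 groups overlap.

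Otx2 encodes the homeobox factor that leads the exit from the naive state. Its level was 6.82, 3.72 and 4.13 CPM in UTX knockout replicates 1 to 3, 1.72, 0.996 and 0.797 CPM in the labelled MLL4 knockdown, and 40.8, 23.5 and 24.5 CPM in wild type. The 3 groups did not overlap, with every labelled MLL4 knockdown library below every UTX knockout library and both groups below wild type. The means were 4.89 ± 1.69, 1.17 ± 0.487 and 29.6 ± 9.68 CPM in that order (SD, n = 3 each). Otx2 fell by 2.60 on the log2 scale in the UTX knockout (SE 0.307, 95% interval -3.27 to -1.93, adjusted p = 0.00074), which left 16.5% of the wild type level. In the labelled MLL4 knockdown it fell by 4.68 (SE 0.357, interval -5.46 to -3.89, adjusted p = 1.27e-05), which left 3.91%. It was the 18th lowest of 14772 fold changes there and the 132nd lowest in the UTX knockout. The labelled MLL4 knockdown was also lower than the UTX knockout (log2 -2.08, SE 0.359, adjusted p = 0.00188). With lane 2 libraries alone, 2 per group, the UTX knockout value was -2.57 with adjusted p = 0.0523.

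The fall of Otx2 had nearly the same size in each replicate number. The log2 ratio of the UTX knockout to the same-numbered wild type library was -2.56, -2.63 and -2.54, and that of the labelled MLL4 knockdown was -4.49, -4.44 and -4.79 (log2 CPM with a prior count of 2). Yet the level itself varied, and replicate 1 was the highest of its group in all 3 groups. It exceeded the mean of replicates 2 and 3 by a factor of 1.74 in the UTX knockout, 1.92 in the labelled MLL4 knockdown and 1.70 in wild type.

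The relatives of Otx2 were scarce in all groups. Otx1, its nearest paralog, averaged 2.00 CPM in the UTX knockout, 1.68 in the labelled MLL4 knockdown and 1.04 in wild type. Its log2 fold changes were 0.95 (SE 0.316, adjusted p = 0.0636) and 0.70 (SE 0.320, adjusted p = 0.130), opposite in sign to those of Otx2 and not past the threshold. With a replicate block the UTX knockout value for Otx1 reached adjusted p = 0.0395. The related homeobox genes Crx and Gsc stayed under 1 CPM on average in every group. An antisense transcript, Otx2os1, overlaps Otx2 in GENCODE M21, and since the strand setting of the counting is not given, its reads cannot be told apart from those of Otx2. The same holds for Gm2164 over Pou3f1 and Gm43352 over Lef1.

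Pou3f1 encodes the POU factor Oct6, which works beside Otx2 in the formative state. Its level was 9.33, 7.31 and 12.4 CPM in the UTX knockout, 8.50, 13.1 and 12.6 CPM in the labelled MLL4 knockdown, and 25.0, 18.7 and 20.3 CPM in wild type. Every library of both groups lay below the lowest wild type library, while the UTX knockout and the labelled MLL4 knockdown overlapped. Pou3f1 fell by 1.14 in the UTX knockout (SE 0.223, interval -1.63 to -0.66, adjusted p = 0.00733), which left 45.3% of wild type. It fell by 0.90 in the labelled MLL4 knockdown (SE 0.221, interval -1.38 to -0.42, adjusted p = 0.0121), which left 53.6%. The labelled MLL4 knockdown minus the UTX knockout was 0.24 (SE 0.224, interval -0.25 to 0.73, adjusted p = 0.447). The 2 libraries per group of lane 2 gave -1.06 in the UTX knockout with adjusted p = 0.0962.

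Unlike Otx2, Pou3f1 did not keep 1 size of change over the replicate numbers. The same-numbered log2 ratios to wild type were -1.42, -1.35 and -0.71 for the UTX knockout, and -1.55, -0.51 and -0.68 for the labelled MLL4 knockdown, all below 0. Pou3f1 lies on chromosome 4, where the median of 992 tested genes was also below 0, at -0.15 in the UTX knockout and -0.22 in the labelled MLL4 knockdown. Relative to that median Pou3f1 stood at -0.99 and -0.69, and the part of the chromosome in its change was not tested. The paralogs Pou3f2, Pou3f3 and Pou3f4, which act in neural cells, stayed under 1 CPM on average in every group.

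Fgf5 encodes a secreted FGF ligand that is the classical marker of the post-implantation epiblast, and it was the rarest of the 5 transcripts. The raw counts were 10, 6 and 4 in the UTX knockout, 4, 1 and 0 in the labelled MLL4 knockdown, and 89, 23 and 36 in wild type. In CPM these were 0.491, 0.259 and 0.186 in the UTX knockout, 0.215, 0.0453 and 0 in the labelled MLL4 knockdown, and 4.62, 0.980 and 1.61 in wild type. The 0 allows a level of up to 0.133 CPM in that library (3 counts, counting error only). Both groups lay below every wild type library and overlapped each other.

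Fgf5 fell by 2.92 in the UTX knockout (SE 0.689, interval -4.43 to -1.41, adjusted p = 0.0169) and by 4.80 in the labelled MLL4 knockdown (SE 0.852, interval -6.66 to -2.93, adjusted p = 0.00217). Over all 3 libraries there were 20 counts in the UTX knockout, 5 in the labelled MLL4 knockdown and 148 in wild type, so the sizes are loose. The UTX knockout call did not survive the loss of its replicate 2 (-2.80, adjusted p = 0.0794) or 3 (-2.65, adjusted p = 0.074), nor the use of lane 2 alone (-3.18, adjusted p = 0.119). Without wild type replicate 1 the values shrank to -2.03 in the UTX knockout and -3.91 in the labelled MLL4 knockdown. Without replicate 1 of the labelled MLL4 knockdown its value was -6.40. The labelled MLL4 knockdown minus the UTX knockout was -1.88 (SE 1.05, interval -4.18 to 0.43, adjusted p = 0.203), and with a replicate block it was -1.91 with adjusted p = 0.0465.

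**Figure D2:**
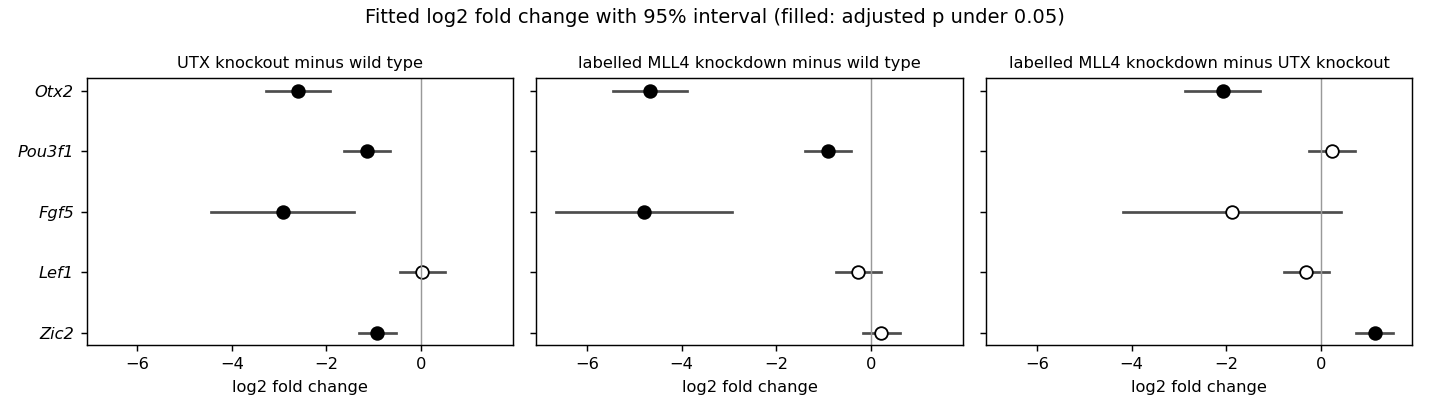
Log2 fold change (linear axis) of the 5 genes in each of the 3 comparisons with its 95% interval; filled points passed an adjusted p of 0.05. Otx2 and Fgf5 lie farthest to the left in both comparisons with wild type, Fgf5 has the widest intervals, and Zic2 lies to the left in the UTX knockout and to the right between the labelled MLL4 knockdown and the UTX knockout.

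The receptor side and the readouts of FGF signalling were counted from lists. Fgf4, the ligand that stem cells make for themselves, averaged 315 CPM in the UTX knockout, 257 in the labelled MLL4 knockdown and 231 in wild type. It rose in the UTX knockout by 0.45 (SE 0.0907, adjusted p = 0.00894), opposite to Fgf5, and its value in the labelled MLL4 knockdown was 0.15 (SE 0.0906, adjusted p = 0.241). Of 5 tested genes for FGF receptors and co-receptors, 2 fell (Fgfr1, Fgfr2) and 1 rose (Fgfr3) in the UTX knockout. In the labelled MLL4 knockdown 3 fell (Fgfr1, Fgfr2, Fgfr4) and 1 rose (Klb). The co-receptor gene Klb was scarce, with 2, 5 and 2 counts in wild type and 10, 14 and 10 in the labelled MLL4 knockdown (log2 1.92, SE 0.637, adjusted p = 0.0449). The rise of Fgfr3 was 1.22 (SE 0.237, adjusted p = 0.00712). The receptor gene Fgfr1, which carries much of the FGF4 signal in stem cells, fell in both (-0.63, SE 0.115 in each). Fgfr1 lies on chromosome 8, where the median gene was at -0.44 and -0.42. Fgfr2 fell by 0.78 (SE 0.213, adjusted p = 0.0307) and by 1.62 (SE 0.220), and the first of these calls ended without any 1 of 5 libraries, with adjusted p up to 0.108.

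Of 14 feedback inhibitors and ETS targets of FGF and ERK, the UTX knockout had 4 that fell and 0 that rose (Spry2, Dusp5, Dusp6, Etv1). In the labelled MLL4 knockdown 1 fell (Dusp5) and 1 rose (Etv1). Spry2, an inhibitor of receptor signalling, stood at -1.23 (SE 0.173, adjusted p = 0.00171) in the UTX knockout and 0.14 (SE 0.169, adjusted p = 0.565) in the labelled MLL4 knockdown. The ERK phosphatase gene Dusp6 stood at -0.74 (SE 0.144, adjusted p = 0.00712) and 0.23 (SE 0.143, adjusted p = 0.267). Etv1 was called in opposite directions, at -0.57 (SE 0.160, adjusted p = 0.0339) and 0.91 (SE 0.156, adjusted p = 0.00179). The call of Etv1 in the UTX knockout ended without any 1 of 6 libraries, with adjusted p up to 0.135.

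Lef1 encodes the TCF/LEF factor that rises with Wnt signalling in primed cells. Its level was 27.9, 17.6 and 24.2 CPM in the UTX knockout, 24.5, 14.9 and 17.2 CPM in the labelled MLL4 knockdown, and 24.3, 18.5 and 25.2 CPM in wild type. The 3 groups overlapped throughout, and replicate 2 was the lowest library in each. The log2 fold change was 0.04 in the UTX knockout (SE 0.217, interval -0.44 to 0.51, adjusted p = 0.935) and -0.26 in the labelled MLL4 knockdown (SE 0.218, interval -0.74 to 0.21, adjusted p = 0.403). The sign of the UTX knockout value turned without UTX knockout replicate 1 (-0.11) or wild type replicate 2 (-0.09). Between the labelled MLL4 knockdown and the UTX knockout the value was -0.30 (SE 0.218, interval -0.78 to 0.18, adjusted p = 0.328).

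Calls among the other TCF factors and the Wnt genes were all falls in the UTX knockout and went both ways in the labelled MLL4 knockdown. Of all tested genes 15.5% and 26.6% were called in these comparisons with wild type. Tcf7 stood at 0.34 (SE 0.133, adjusted p = 0.102) in the UTX knockout, and at -0.25 (SE 0.134, adjusted p = 0.186) in the labelled MLL4 knockdown. The first was called with a replicate block (adjusted p = 0.0408) or without wild type replicate 1 (0.0152), and the second without wild type replicate 2 (0.0341). Tcf7l1, a repressor of pluripotency genes, stood at -0.33 (SE 0.194, adjusted p = 0.280) and fell by 0.70 in the labelled MLL4 knockdown (SE 0.195, adjusted p = 0.0222), a call that ended without wild type replicate 3 or any of the 3 labelled MLL4 knockdown libraries (adjusted p 0.0772, 0.0749, 0.0742 and 0.0548). Tcf7l2 stood at 0.06 (SE 0.241, adjusted p = 0.902) and 0.62 (SE 0.239, adjusted p = 0.0759), and the second was called with a replicate block (adjusted p = 0.00766), without wild type replicate 3 (0.0307), with no filter (0.0268) or by DESeq2 (0.0413). Of 12 Wnt target genes tested of 14, the UTX knockout had 3 that fell (Cdx2, Ccnd1, Myc) and 0 that rose, and in the labelled MLL4 knockdown 3 rose (Sp5, Notum, Ccnd1) and 1 fell (Rnf43). Cdx2 is also one of the trophectoderm genes counted below. It was scarce, with 2, 21 and 30 counts in wild type replicates 1 to 3 and 3, 3 and 1 in the UTX knockout. Of 9 genes of the beta-catenin machinery 1 fell in each, Tle4 in the UTX knockout and Tle2 in the labelled MLL4 knockdown.

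Zic2 was the gene of the 5 that fell in the UTX knockout and lay close to wild type in the labelled MLL4 knockdown. Its level was 20.5, 15.2 and 21.8 CPM in the UTX knockout, 43.7, 40.1 and 43.1 CPM in the labelled MLL4 knockdown, and 42.8, 27.6 and 38.1 CPM in wild type. All 3 UTX knockout libraries lay below the other 6, and the labelled MLL4 knockdown overlapped wild type. Zic2 fell by 0.92 in the UTX knockout (SE 0.179, interval -1.31 to -0.52, adjusted p = 0.00739), which left 53.0% of wild type. That call was kept in all 18 alternatives, with adjusted p up to 0.0398. The labelled MLL4 knockdown stood at 0.23 (SE 0.175, interval -0.16 to 0.61, adjusted p = 0.368). Set directly against the UTX knockout, the labelled MLL4 knockdown was 2.21-fold higher (log2 1.14, SE 0.179, interval 0.75 to 1.54, adjusted p = 0.00113).

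Zic5 lies next to Zic2 on chromosome 14 in the opposite orientation and had the same order of group means. Zic5 averaged 20.5 CPM in the UTX knockout, 46.2 in the labelled MLL4 knockdown and 36.2 in wild type. It fell by 0.82 in the UTX knockout (SE 0.215, adjusted p = 0.0262), a call that ended without wild type replicate 1 (adjusted p = 0.0658) or UTX knockout replicate 2 or 3 (0.116 and 0.110). Its value in the labelled MLL4 knockdown was 0.35 (SE 0.212, adjusted p = 0.246), with adjusted p = 0.0334 under a replicate block and 0.0395 without wild type replicate 1. In the direct comparison Zic5 rose with Zic2, by 1.17 (SE 0.216, adjusted p = 0.00262). Zic1 and Zic4 stayed under 1 CPM on average in every group.

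Per kilobase of exon (RPKM, from CPM and GENCODE M21 exon lengths), the order of the 5 genes changed with the group. In the UTX knockout Zic2 was highest at 6.66 RPKM, followed by Lef1 at 2.64, Pou3f1 at 2.51, Otx2 at 1.16 and Fgf5 at 0.125. In the labelled MLL4 knockdown Zic2 stood at 14.7 RPKM, Pou3f1 at 2.96, Lef1 at 2.15, Otx2 at 0.278 and Fgf5 at 0.0347. In wild type Zic2 stood at 12.6 RPKM (9.59 to 14.9), Otx2 at 7.02 (5.57 to 9.66), Pou3f1 at 5.55 (4.86 to 6.50), Lef1 at 2.58 (2.11 to 2.87) and Fgf5 at 0.962 (0.392 to 1.85). Otx2 thus ranked behind Zic2 alone in wild type, and ahead of Fgf5 alone in both other groups. In wild type Otx2 overlapped Zic2 above it and Pou3f1 below it, and in both other groups Lef1 and Pou3f1 overlapped each other.

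The wild type replicates were not alike in these genes. Replicate 1 was the highest wild type library for 4 of the 5, where 35.0% of all tested genes were highest in it. The ratio of replicate 1 to the mean of replicates 2 and 3 was 3.57 for Fgf5, 1.70 for Otx2, 1.31 for Zic2, 1.28 for Pou3f1 and 1.11 for Lef1, which was highest in replicate 3. The same held for 11 of 21 other formative and primed genes (52.4%), but for 0 of 18 naive genes and 1 of 14 FGF and ERK genes. Otx2 and Fgf5 were highest in replicate 1 of all 3 groups, as were 7 of the 21 other formative genes (33.3%) and 12.3% of all tested genes.

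Other markers also moved with the wild type replicates. The 10 trophectoderm genes summed to 127.4 to 177.8 CPM in the UTX knockout and 98.9 to 118.9 in the labelled MLL4 knockdown, and to 146.5, 591.5 and 535.9 CPM in wild type replicates 1 to 3. The keratins Krt8 and Krt18 made up most of the sum in wild type replicates 2 and 3. The factor gene Elf5 had 0 counts in every UTX knockout library, 0, 1 and 1 in the labelled MLL4 knockdown, and 0, 5 and 5 in wild type. Other factor genes of the list were also higher in wild type replicates 2 and 3. Over wild type replicates 1 to 3 the counts were 2, 21 and 30 for Cdx2, 34, 97 and 136 for Gata3, and 14, 216 and 292 for Hand1. Of the 9 trophectoderm genes tested, 6 fell in each group, and 1 (Tead4) rose in the UTX knockout. The 12 fibroblast genes summed to 19.5 to 37.4 CPM in the UTX knockout and 24.8 to 27.9 in the labelled MLL4 knockdown, and to 52.9, 235.5 and 174.4 CPM in wild type. The contractile genes Tagln and Acta2 made up most of that sum in wild type replicates 2 and 3. Thy1 and Twist1 of the same list were instead highest in wild type replicate 1. Of the 7 fibroblast genes tested, 4 fell in the UTX knockout and 6 in the labelled MLL4 knockdown, and 0 rose. Lum had 0 counts in all 9 libraries. Their part in the results was not tested. Otx2 and Fgf5 were highest in wild type replicate 1, the wild type library in which both marker sums were lowest. Without wild type replicate 1 Otx2 stood at -2.28 in the UTX knockout and -4.36 in the labelled MLL4 knockdown, with 4 and 3 of the 5 genes called. That fit keeps wild type replicates 2 and 3, where both marker sums were high, so it is no test of the part of these markers.

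**Figure D3:**
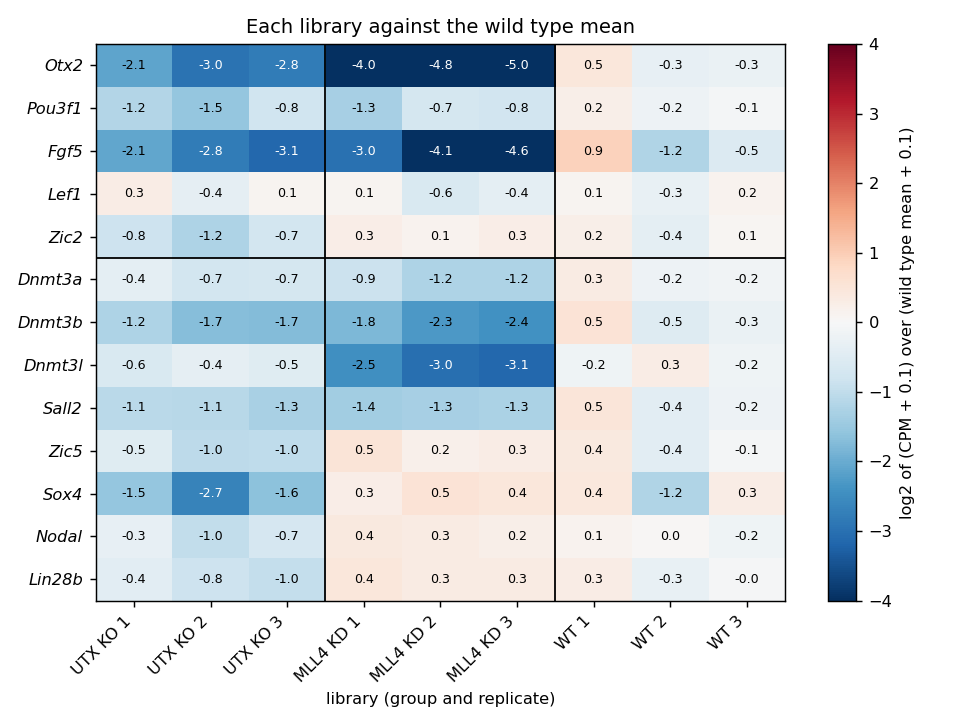
Log2 of CPM + 0.1 in each library over the wild type mean + 0.1, for the 5 genes (above the line) and 8 other formative or primed genes, with the 3 UTX knockout, 3 labelled MLL4 knockdown and 3 wild type libraries from left to right; colours saturate at 4 either way. Otx2, Dnmt3a, Dnmt3l and, by a narrow margin, Dnmt3b are lower in every labelled MLL4 knockdown library than in any other. Fgf5 overlaps between the labelled MLL4 knockdown and the UTX knockout. Zic2, Zic5, Sox4, Nodal and Lin28b are low in the UTX knockout and near or above wild type in the labelled MLL4 knockdown.

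Among 21 other genes of the formative or primed state, all tested, the UTX knockout had 8 that fell and 0 that rose (Dnmt3a, Dnmt3b, Zic5, Sall2, Tead2, Sox4, Lin28b, Nodal), with a median log2 fold change of -0.56. In the labelled MLL4 knockdown 8 fell (Dnmt3a, Dnmt3b, Dnmt3l, Sall2, Grhl2, Tead2, Pim2, Tcf7l1) and 3 rose (Tcf15, Cdh2, Sox11), with a median of -0.38. Their summed level was 1332 to 1555 CPM in the UTX knockout, 1110 to 1143 in the labelled MLL4 knockdown and 2147 to 2199 in wild type. A few abundant genes weigh most in this sum, so it is no measure of the whole list. In the same order, Dnmt3l averaged 451.2, 87.8 and 628.6 CPM, Dnmt3b 123.4, 81.1 and 359.4, and Dnmt3a 176.1, 124.8 and 267.2. Etv4 went the other way, at 146.9, 167.8 and 115.8 CPM. Some of these genes, such as Dnmt3b, are also active in naive cells, so the list is no pure readout of the later state.

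The de novo methyltransferase Dnmt3b averaged 123.4 CPM in the UTX knockout, 81.1 in the labelled MLL4 knockdown and 359.4 in wild type. It fell by 1.54 (SE 0.265, adjusted p = 0.00423) and by 2.15 (SE 0.270, adjusted p = 0.00029). Dnmt3a fell by 0.60 (SE 0.168, adjusted p = 0.0343) and by 1.10 (SE 0.170, adjusted p = 0.00096), and the first call ended without wild type replicate 1 (adjusted p = 0.093) or without 1 of 4 libraries of the other groups (0.0519 to 0.137). Their partner without catalytic activity, Dnmt3l, stood at -0.48 in the UTX knockout (SE 0.187, adjusted p = 0.105) and fell by 2.84 in the labelled MLL4 knockdown (SE 0.200, adjusted p = 8e-06). Between the labelled MLL4 knockdown and the UTX knockout Dnmt3l fell by 2.36 (SE 0.197, adjusted p = 3.2e-05), and Dnmt3b stood at -0.61 (SE 0.262, adjusted p = 0.104). A replicate block made that Dnmt3b difference a call (-0.62, adjusted p = 0.00315), as did dropping wild type replicate 1 (adjusted p = 0.0282), no filter (0.038) or a fit of these groups alone (0.0256). Sall2, a zinc finger factor of the SALL family, fell by 1.16 (SE 0.207, adjusted p = 0.00513) and by 1.34 (SE 0.209, adjusted p = 0.00101). Grhl2, which opens epithelial enhancers in the formative state, stood at -0.33 (SE 0.199, adjusted p = 0.289) in the UTX knockout and fell by 1.56 (SE 0.207, adjusted p = 0.000407) in the labelled MLL4 knockdown.

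Sox4, Lin28b and Nodal, like Zic2, fell in the UTX knockout and did not pass the test in the labelled MLL4 knockdown. For Lin28b, whose product binds let-7 precursors, the values were -0.71 (SE 0.175, adjusted p = 0.0209) and 0.38 (SE 0.173, adjusted p = 0.131). The first of these calls ended without wild type replicate 1 (adjusted p = 0.0528) or UTX knockout replicate 2 or 3 (0.0931 and 0.0986), and the second value was called with a replicate block (adjusted p = 0.0309) or without wild type replicate 1 (0.0295). Sox4 averaged 3.40 CPM in the UTX knockout, 17.0 in the labelled MLL4 knockdown and 12.7 in wild type. It fell by 1.90 in the UTX knockout (SE 0.398, adjusted p = 0.0103) and stood at 0.43 in the labelled MLL4 knockdown (SE 0.367, adjusted p = 0.423), with -0.01 in lane 2 alone. The direct difference was 2.33 (SE 0.400, adjusted p = 0.00184). The ligand gene Nodal, which maintains primed cells, fell by 0.64 in the UTX knockout (SE 0.160, adjusted p = 0.0214) and stood at 0.31 in the labelled MLL4 knockdown (SE 0.159, adjusted p = 0.169). Dropping replicate 2 or 3 of the UTX knockout ended the Nodal call (adjusted p = 0.0937 and 0.0851). Tcf15, a factor that primes stem cells for differentiation, stood at -0.40 (SE 0.172, adjusted p = 0.142) and rose by 1.09 in the labelled MLL4 knockdown (SE 0.170, adjusted p = 0.00103). Directly between the labelled MLL4 knockdown and the UTX knockout, 8 of the 21 rose (Tcf15, Zic5, Foxd3, Sox4, Cdh2, Lin28b, Sox11, Nodal) and 4 fell (Dnmt3a, Dnmt3l, Grhl2, Pim2).

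**Figure D4:**
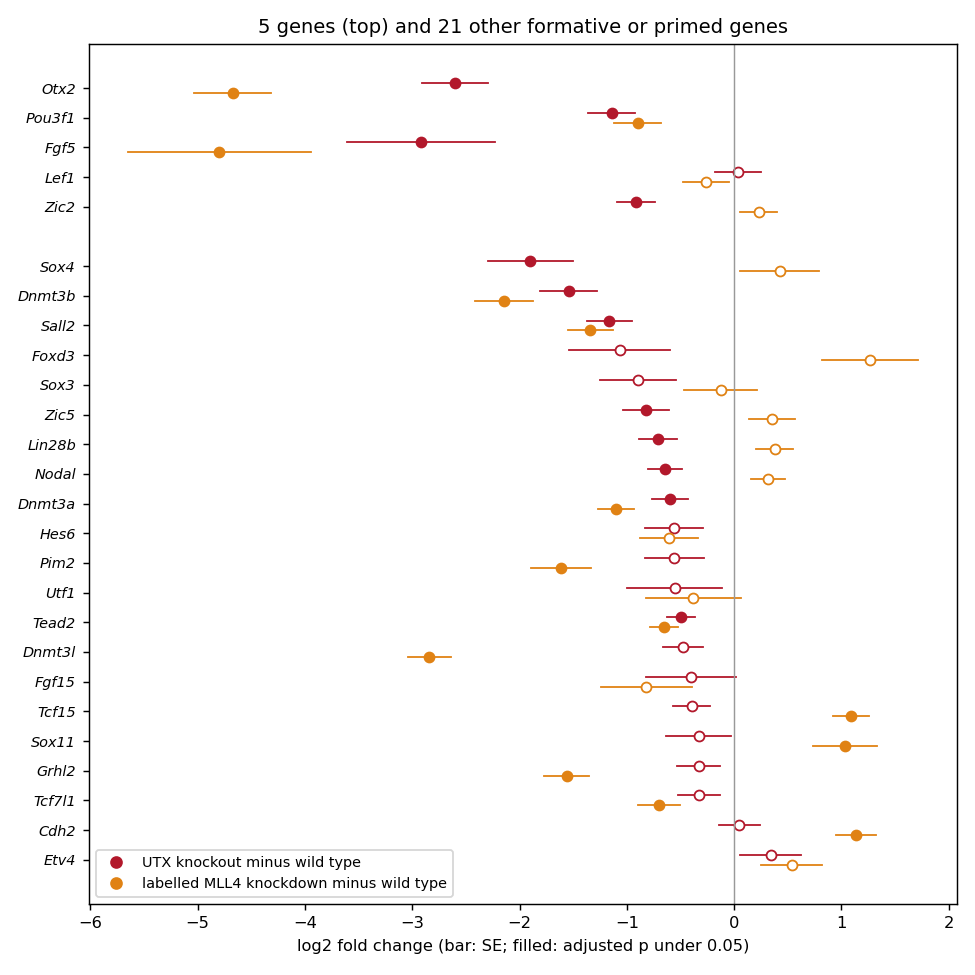
Log2 fold change against wild type (linear axis, bars are the SE) of the 5 genes and 21 other formative or primed genes in the UTX knockout and the labelled MLL4 knockdown; filled points passed an adjusted p of 0.05. Of the 21, 8 points are filled on the left and 0 on the right in the UTX knockout, against 8 and 3 in the labelled MLL4 knockdown.

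Naive genes were called in both directions. Of 18, 3 rose (Tfcp2l1, listed as Tcfcp2l1, with Tbx3 and Prdm14) and 3 fell (Zfp42, Dppa3, Fbxo15) in the UTX knockout, and 9 rose and 5 fell in the labelled MLL4 knockdown. Klf4, a factor of the naive network, stood at 0.20 in the UTX knockout (SE 0.178, adjusted p = 0.479) and rose by 1.47 in the labelled MLL4 knockdown (SE 0.181, adjusted p = 0.000261). Prdm14, which holds back FGF signalling and the Dnmt3 genes, rose in both, by 0.88 (SE 0.146, adjusted p = 0.00364) and 1.47 (SE 0.146, adjusted p = 6.9e-05). Dppa3 (Stella), which marks naive and germ cells, fell in both (-1.53, SE 0.200, adjusted p = 0.00112, and -3.26, SE 0.220, adjusted p = 7e-06). The summed naive level was 4389 to 4774 CPM in the UTX knockout, 4699 to 4863 in the labelled MLL4 knockdown and 3108 to 3785 in wild type. Of 9 core pluripotency genes, 2 fell in each (Dppa2, Lin28a), and 0 rose in the UTX knockout and 2 in the labelled MLL4 knockdown (Tdgf1, Zfp281). Pou5f1 (Oct4) averaged 1078, 1058 and 896 CPM in the UTX knockout, the labelled MLL4 knockdown and wild type, a level in keeping with the labelled cell type.

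Markers of the germ layers summed to less than the naive and the core pluripotency genes in every library. The 5 genes themselves summed to 44.1 to 65.0 CPM in the UTX knockout, 69.2 to 78.7 in the labelled MLL4 knockdown and 89.3 to 137.5 in wild type. Of 7 neuroectoderm genes tested, 3 fell (Pax6, Nes, Tubb3) and 1 rose (Neurod1) in the UTX knockout, and 2 fell (Nes, Tubb3) and 1 rose (Map2, listed as Mtap2) in the labelled MLL4 knockdown. The neuroectoderm sum was 91.7 to 114.7 CPM in the UTX knockout, 95.8 to 108.1 in the labelled MLL4 knockdown and 164.7 to 210.3 in wild type, above that of the 5 genes in each group. Zic2, Pou3f1 and Otx2 are also used in early neural cells, and the part of that lineage in their levels was not tested. Mesendoderm genes summed to 28.3 to 34.3, 23.7 to 31.8 and 20.5 to 30.3 CPM in the same order, and of the 9 tested, 2 rose and 1 fell in UTX knockout cells, and 1 fell in the labelled MLL4 knockdown. Of 8 primitive endoderm genes tested, the UTX knockout had 3 that rose and 1 that fell, and the labelled MLL4 knockdown 4 that rose. The 9 genes of that list summed to 318.7 to 472.3 CPM in the UTX knockout, 305.0 to 349.0 in the labelled MLL4 knockdown and 157.2 to 255.5 in wild type.

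Over the 9 libraries Otx2 and Fgf5 were the most alike pair of the 5 genes, with Pearson r = 0.963 for log2 CPM. Otx2 with Pou3f1 gave 0.679, Pou3f1 with Fgf5 0.659, Lef1 with Fgf5 0.54, Pou3f1 with Zic2 0.51 and Otx2 with Lef1 0.493. The other 4 pairs lay between -0.079 and 0.093. These values describe 9 libraries that share 3 groups and their replicate numbers, and carry no test.

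Among all other tested genes, the closest to Otx2 were Bspry (r = 0.992), Lrrc8e (0.988) and Muc3 (0.987). The closest to Fgf5 were Trim67 (0.994), Dnmt3b (0.993) and Dnmt3a (0.985). The closest to Pou3f1 were Ramp2 (0.975), Fosb (0.967) and Med26 (0.945), to Zic2 Sox4 (0.984), Zswim4 (0.968) and Brd2 (0.968), and to Lef1 Gem (0.920), Cacng4 (0.904) and Xpo6 (0.889). Bspry averaged 14.0 CPM in the UTX knockout, 7.83 in the labelled MLL4 knockdown and 27.6 in wild type, so it had the order of Otx2 with a smaller range. Trim67 averaged 0.661, 0.218 and 7.11 CPM in these groups, and thus shared with Fgf5 a low level in both. Of these 15 genes 3 (Dnmt3a, Dnmt3b, Sox4) also stand in the list of 21 formative or primed genes. Lrrc8e, Trim67, Med26 and Zswim4 lie on chromosome 8, where the median gene was at -0.44 in the UTX knockout and -0.42 in the labelled MLL4 knockdown. Bspry and Gem lie on chromosome 4, with medians of -0.15 and -0.22. The part of the chromosome in these likenesses was not tested.

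**Figure D5:**
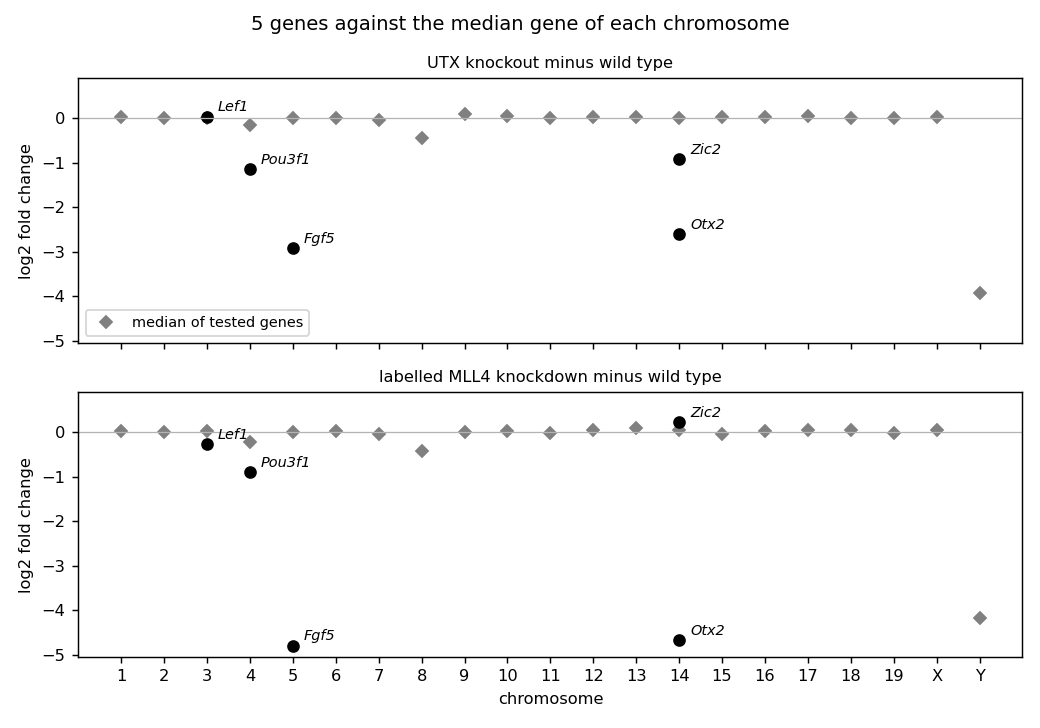
Log2 fold change against wild type (linear axis) of the 5 genes and of the median tested gene of each chromosome, for the UTX knockout (top) and the labelled MLL4 knockdown (bottom). The medians lie near 0 on chromosomes 3, 5 and 14, which hold Lef1, Fgf5, Otx2 and Zic2, and at -0.15 and -0.22 on chromosome 4, which holds Pou3f1. The medians farthest from 0 are those of Y (-3.93 and -4.18, 4 genes) and chromosome 8 (-0.44 and -0.42, 780 genes), which hold none of the 5 genes.

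The genes lie on 4 chromosomes, and those that fell together are not neighbours. Otx2 and Zic2 are both on chromosome 14, where the median of 500 tested genes was 0.02 in the UTX knockout and 0.05 in the labelled MLL4 knockdown. In the labelled MLL4 knockdown Otx2 fell and Zic2 did not pass the test on that same chromosome. Exoc5, the nearest gene to Otx2 at the higher coordinate, stood at -0.31 (SE 0.132, adjusted p = 0.135) and -0.07 (SE 0.132, adjusted p = 0.731). Prdm8, the gene next to Fgf5 at the lower coordinate, averaged under 1 CPM in every group. Next to Lef1, Rpl34 stood at -0.20 (SE 0.192, adjusted p = 0.528) and -0.48 (SE 0.192, adjusted p = 0.0899). Hadh on the other side of Lef1 stood at 0.08 (SE 0.125, adjusted p = 0.704) and fell in the labelled MLL4 knockdown by 0.54 (SE 0.125, adjusted p = 0.00919).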

How the data were processed

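RNA was sequenced with a TruSeq kit in 9 libraries, and the authors deposited raw read counts per gene symbol, 1 column per library, each matched by its title. Per the submitters' processing notes the tools were STAR 2.4 and HTSeq 0.6.1, and mm9 and hg19 are listed as builds without a role. For annotation release and strand setting, none is given in the sources used here. Depth was 18570746 to 23874816 counts per library.

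The tests used edgeR 4.0.16 (R 4.3.3) on the counts: filterByExpr by group (14772 genes kept), TMM factors, and the two-sided quasi-likelihood test in a fit of group over all 9 libraries, and Benjamini-Hochberg adjustment over all tested genes within each comparison and a threshold of 0.05. SE is the size of the log2 fold change over the root of F. The code was tested on simulated counts. Exact permutation tests were not used, since 3 libraries against 3 reach p = 0.1 at best. CPM and RPKM were computed here, RPKM with GENCODE M21 (GRCm38) exon lengths; no coordinates of that build are set beside the counts. Promoter sequences are RefSeq's, on GRCm38.p6.

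Libraries of a group all differed by more than sampling noise, with chi-square values of 6.42 to 56.5 per degree of freedom. The titles number replicates 1 to 3 in each group, and libraries with the same number moved together around the means of their groups, with correlations over genes, for numbers 1 to 3, of 0.415, 0.168 and 0.381 (UTX knockout, wild type), 0.416, 0.182 and 0.238 (labelled MLL4 knockdown, wild type) and 0.467, 0.181 and 0.308 (labelled MLL4 knockdown, UTX knockout), so a fit with a replicate block was run as a paired alternative.

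The 5 genes and all lists were chosen with earlier results of these data known. Named genes were the 5, their paralogs, Kdm6a, Kmt2d, Uty, Fgf4, Fgfr1, Fgfr2, up to 5 genes of smallest p per list (a selection of which is printed) and the 3 tested genes of highest Pearson r with each of the 5, leaving out clone, model and pseudogene names. Neighbouring genes were added after the data were seen. Alternatives were a replicate block, lane as a covariate, lane 2 alone, other factors (RLE, upper quartile), DESeq2 1.42.0, no filter, a filter at 1 CPM in 3 libraries, only the groups compared, subtraction of the chromosome's median, and each library left out. Sox1 was not analysed here, and 1 list gene is not reported here.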

Additional observations from a re-analysis of the deposited data

How the results depend on the processing

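Over all alternatives, 272 of 281 recomputed values of the 5 genes were counted as unchanged. A value with a test had to keep direction and side of the threshold. Values minus the chromosome's median have no p, and counted as unchanged where that median was smaller than the SD within the groups. Calls lost in the UTX knockout against wild type with lane 2 libraries alone (2 per group) were Otx2 (-2.57), Pou3f1 (-1.06) and Fgf5 (-3.18), which left 1 of the 5 called, where 74 genes of all were called against 2285. In lane 2 alone the labelled MLL4 knockdown gave 1341 calls against wild type and 1535 against the UTX knockout, Pou3f1 between these groups turned to -0.035, and Sox4 against wild type to -0.0069. The replicate block gave 3446 calls in the UTX knockout and Fgf5 at -1.91, now called, between the labelled MLL4 knockdown and the UTX knockout; among the 5 genes it changed no other call. Fitting only the UTX knockout and wild type gave 1240 calls. Leaving out each library in turn gave 833 to 2854 calls in the UTX knockout, 2273 to 4108 in the labelled MLL4 knockdown and 2556 to 5281 between them. It moved Fgf5 between -3.38 and -2.03 and Lef1 between -0.11 and 0.20 in the UTX knockout, Tcf7l2 there between -0.17 and 0.29, and Mll2 in the labelled MLL4 knockdown between -0.51, which was called, and 0.16. Of 1080 values of the other named genes 1008 kept their call, 50 lost it, 18 gained it and 4 turned. With the filter at 1 CPM in 3 libraries, and between the labelled MLL4 knockdown and the UTX knockout with only these groups in the fit, Fgf5 fails the filter and has no value. The cause of these shifts was not tested.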
